A study of Homo sapiens with 4 samples.

Results

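The genes described here carry or limit the signal of insulin, or respond when that signal is low. The 10 listed genes were the insulin receptor gene INSR, its substrates IRS1 and IRS2, the PI3K inhibitor gene PIK3IP1, the transcription factors FOXO1, FOXO3 and FOXO4, the cyclin gene CCNG2, and the alpha-arrestin genes TXNIP and ARRDC4. They were taken by symbol from 57820 gene identifiers, and 9 of the 10 matched. All 9 passed the filter on low counts, among 17024 tested genes. TXNIP, which restrains glucose uptake and binds thioredoxin, was paired with no identifier by the name tables used here and is not analysed here.

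The question of the study was how gene expression changes when ARID1B, a subunit of BAF chromatin remodelling complexes, is lowered in Daoy, a long-established line of human medulloblastoma cells, and RNA was sequenced to answer it. Of the 4 libraries 3 were labelled wild-type (Daoy_WT1 to Daoy_WT3, called wild-type libraries 1 to 3) and 1 was labelled as expressing shARID1B (Daoy_ARID1B_shRNA, called the shRNA-labelled library). The short hairpin RNA (shRNA) came from the doxycycline-switched lentiviral vector tet-pLKO-puro in polyclonal cell populations, and the labels give doxycycline at 1 µg/ml for 72 h for every library. The design names cells with the vector alone and parental cells as controls without saying which wild-type library is which, so the controls may be of more than 1 kind. The lone library of the shRNA arm has no replicate. The labels do not state separate cultures for the wild-type libraries. P-values therefore rest on the spread between these 3 libraries, which may be technical.

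The wild-type libraries held 12619786 to 15390106 reads in genes and the shRNA-labelled library 8792848, so its values carry the larger counting error. The target gene did not follow the label. ARID1B stood at 168, 86.1 and 72.8 CPM (read counts scaled to a common total of reads in genes) in wild-type libraries 1 to 3 and at 174 CPM in the shRNA-labelled library (log2 fold change 0.69, SE 0.46, edgeR FDR = 0.399). FDR is the Benjamini-Hochberg adjusted p. After a smooth dependence on GC content and transcript length was taken out of each library (called GC-corrected below), ARID1B had -0.12 (edgeR FDR = 0.927). Without wild-type library 1 the ARID1B value was 1.12 (edgeR FDR = 0.026). Every direction below is therefore one of the shRNA-labelled library against the wild-type libraries. Neural and medulloblastoma markers were present: 9 of 12 were above 1 CPM in every library, and ATOH1 was at 0 counts in all 4. Of these markers the vimentin gene VIM, which makes up most of the list's sum, was called lower in the shRNA-labelled library and ZIC2 was called higher (8.12 to 10.4 CPM in wild type and 24.7 CPM, edgeR FDR = 0.043), while the other tested ones did not pass. The list summed to 1020 CPM there against 2460 to 2810 CPM in wild type. Mesenchymal markers were also present (3560 against 3130 to 5180 CPM), while blood and endothelial markers summed to at most 1.43 CPM. Epithelial markers, mainly KRT14, summed to 7.29 to 17.2 CPM in wild type and 2.73 CPM; the part of these cell markers in the results below was not tested. The labels give no batch, but the shRNA-labelled library's deposited file is numbered apart from the other 3; a separate batch, if there was one, cannot be told apart from the group.

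As background, insulin binds its receptor, a tyrosine kinase, which phosphorylates the substrate proteins IRS1 and IRS2. These recruit PI3K, and the lipid that PI3K makes activates the kinase AKT. AKT phosphorylates FOXO factors, which then leave the nucleus; when the signal is low, FOXO factors enter it and switch on genes that slow the cell cycle and raise sensitivity to insulin, IRS2 and INSR among them. TXNIP and ARRDC4 are known targets of the glucose-sensing factor MondoA, which binds DNA through E-boxes.

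Sequence upstream of the transcription start is shown for IRS2 and IRS1, because these substrate genes lay on opposite sides of the wild-type range, and for ARRDC4 and CCNG2, because they are the measured genes with an E-box before the start. They are RefSeq sequences of build GRCh38.p14, 5′ to 3′ on the gene's strand, of 250 bases ending at the start for IRS2 and IRS1, and of 80 bases around the E-box for ARRDC4 (247 to 168 before the start) and CCNG2 (80 to 1 before it). Capitals mark the E-box CACGTG, which reads the same on either strand.
IRS2 (chr13:109786584-109786833, minus strand): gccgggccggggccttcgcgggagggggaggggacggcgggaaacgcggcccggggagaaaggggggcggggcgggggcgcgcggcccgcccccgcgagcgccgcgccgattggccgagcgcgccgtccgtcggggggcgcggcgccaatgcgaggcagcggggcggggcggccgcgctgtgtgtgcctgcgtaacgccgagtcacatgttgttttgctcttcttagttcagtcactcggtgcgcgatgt
IRS1 (chr2:226799821-226800070, minus strand): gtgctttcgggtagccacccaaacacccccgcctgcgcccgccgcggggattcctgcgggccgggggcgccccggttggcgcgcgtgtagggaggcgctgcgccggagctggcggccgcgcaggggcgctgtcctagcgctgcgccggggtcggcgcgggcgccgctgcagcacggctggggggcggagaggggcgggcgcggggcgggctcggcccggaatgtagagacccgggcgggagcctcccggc
ARRDC4 (chr15:97960456-97960535, plus strand): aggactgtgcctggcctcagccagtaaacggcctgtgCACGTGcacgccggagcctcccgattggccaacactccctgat
CCNG2 (chr4:77157127-77157206, plus strand): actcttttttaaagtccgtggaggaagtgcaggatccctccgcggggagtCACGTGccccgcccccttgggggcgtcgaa
The search covered 300 bases a window, from 250 before the start to 50 after it, on both strands. It covered the E-box, the forkhead motif GTAAACA that FOXO factors bind, and TGATGNAA, a form of the element bound by C/EBP and ATF factors; the 3 motifs do not contain one another. The IRS2 window held none of the 3. The E-box began 210 bases before the start of ARRDC4, 30 before that of CCNG2 and, outside the bases shown, 35 after that of IRS1. It was in 7.26% of 35116 promoter windows of this length. The forkhead motif (3.42% of windows) was in 1 window each of TXNIP, FOXO4 and PIK3IP1, and TGATGNAA (3.62%) was in none of the 15 windows of the 10 genes. These matches are letters in a window and show no binding.

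IRS2 was the 1 gene of the 9 that passed the test. It rose in the shRNA-labelled library, while INSR, IRS1, PIK3IP1, the 3 FOXO genes, CCNG2 and ARRDC4 did not (edgeR quasi-likelihood test, Benjamini-Hochberg over all tested genes, threshold 0.05). Over all tested genes 4.48% were called, 3.65% higher and 0.834% lower, and 1 gene of 9 is too few to set against that share. The library labelled ARID1B shRNA lay above all wild-type libraries for 4 of the 9 genes and below all of them for 3; of all tested genes 35.2% lay above and 37.7% below, 73.0% in all. The median log2 fold change of the 9 was 0.16, against -0.05 over all tested genes.

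**Figure D1:**
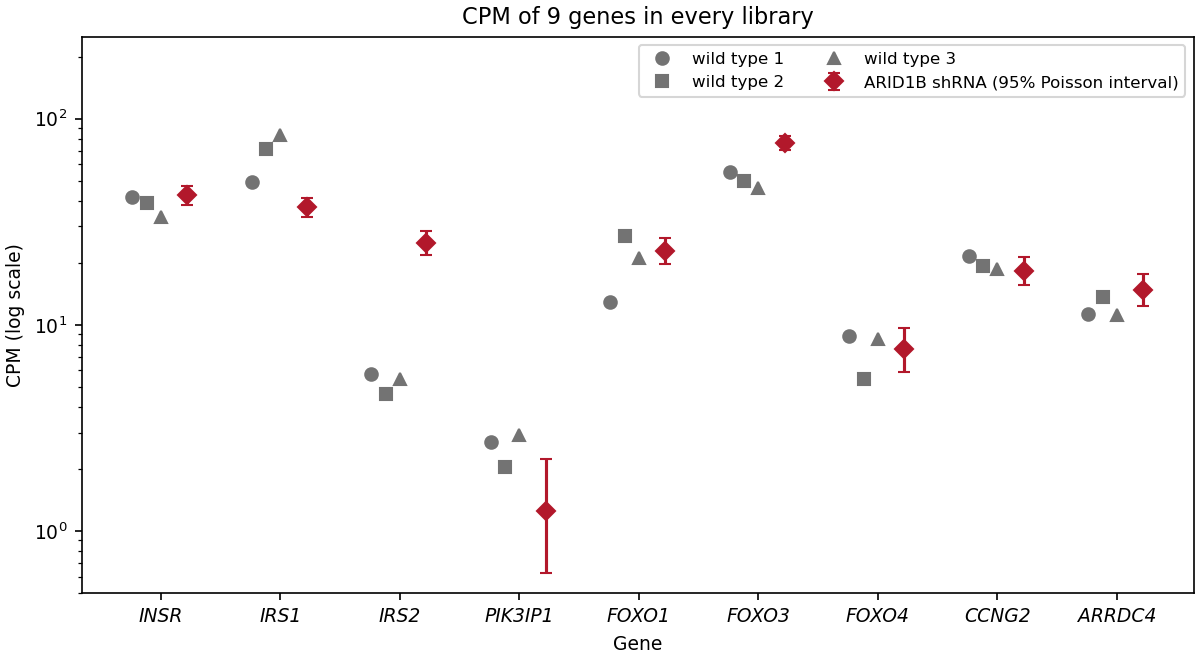
CPM on a log axis for the 9 measured genes: grey symbols are the 3 wild-type libraries, red diamonds the shRNA-labelled library with its exact 95% Poisson interval, which covers counting error only. IRS2 stands at 25.02 CPM against 4.61 to 5.78 CPM in wild type, IRS1 and PIK3IP1 lie below their wild-type values, and FOXO1 and FOXO4 lie among theirs.

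INSR encodes the receptor itself. INSR (ENSG00000171105.9) measured 41.8, 39.2 and 33.3 CPM in wild-type libraries 1 to 3 and 42.4 CPM in the shRNA-labelled library (Poisson interval 38.2 to 47.0). The last value was just above the highest wild-type one, and its counting interval took in 2 of the 3 wild-type values. The log2 fold change was 0.16 with an SE of 0.22 (edgeR FDR = 0.679). IGF1R, the receptor for insulin-like growth factors, measured 115, 93.4 and 106 CPM in wild type and 99.7 CPM, within the wild-type range (edgeR FDR = 0.841).

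IRS2 is the substrate that FOXO factors are known to induce. IRS2 (ENSG00000185950.7) had 73, 61 and 84 counts in wild-type libraries 1 to 3 and 220 counts in the shRNA-labelled library. These were 5.78, 4.61 and 5.46 CPM against 25.02 CPM (Poisson interval 21.8 to 28.6). The wild-type values lay close together and the groups were far apart. In bulk RNA, more cells with a transcript and more transcript per cell cannot be told apart. IRS2 rose 4.74-fold, by 2.25 on the log2 scale with an SE of 0.25 (edgeR FDR = 0.021). It passed under all 12 alternatives, but by a narrow margin without wild-type library 2 (edgeR FDR = 0.0498) or 3 (0.047). Over the 12, the adjusted p ran from 1.31e-09 to 0.0498.

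GC content moved with the size of this value. The IRS2 transcript has 58.7% GC, in bin 9 of 10 equal bins of tested genes by rising GC content, where the median log2 fold change of all genes was 0.51 and 6.20% were called higher. After GC correction IRS2 was 2.58-fold higher, with a log2 fold change of 1.37, an SE of 0.23 and an edgeR FDR of 0.046. An annotated antisense transcript shares 115 bases with IRS2 exons in GENCODE 29, and reads from that stretch cannot be assigned to a strand here. Such overlaps also touch FOXO1, with 269 bases of LINC00598 on the same strand, and PIK3IP1, with 36 bases of PIK3IP1-DT on the opposite strand.

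IRS1 is the other widely expressed substrate of the insulin and IGF receptors. IRS1 (ENSG00000169047.5) measured 49.4, 71.7 and 83.8 CPM in wild-type libraries 1 to 3 and 37.2 CPM in the shRNA-labelled library (Poisson interval 33.3 to 41.5). The groups did not overlap, but wild-type library 1 was the low one of its group and the wild-type values spread 1.69-fold. The log2 fold change was -0.88 with an SE of 0.35, which did not pass (edgeR FDR = 0.193). It passed without wild-type library 1 (-1.08, edgeR FDR = 0.0493), where 7.07% of all genes were called, and with no filter on low counts (-0.90, edgeR FDR = 0.0043), where 10.5% were, and in the 12 alternatives it ran from -1.17 to -0.71. IRS4, a further substrate gene, was barely detected, with 3, 2 and 11 counts in wild type and 0 counts in the shRNA-labelled library. A floor of 3 counts there is 0.341 CPM, and the Poisson interval used for the other genes reached 0.42 CPM. IRS4 was not tested.

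Levels of different genes are compared per kb of the longest annotated transcript. On that scale IRS2 was the lowest of the 9 genes in wild type, at 0.649 ± 0.0744 CPM per kb (SD, n = 3), and IRS1 the highest, at 7.04 ± 1.79. In the shRNA-labelled library they measured 3.08 and 3.83 CPM per kb. The ratio of IRS2 to IRS1 per kb was 0.140, 0.0767 and 0.0777 in wild-type libraries 1 to 3 and 0.802 in the shRNA-labelled library, 8.17 times the wild-type mean. Their sum, 6.91 CPM per kb, lay among the wild-type sums of 5.81, 7.95 and 9.30. In log2 fold changes, IRS2 and IRS1 differed by 3.12 as measured and by 2.54 after GC correction. This ratio was formed after its parts were seen and was not tested.

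**Figure D2:**
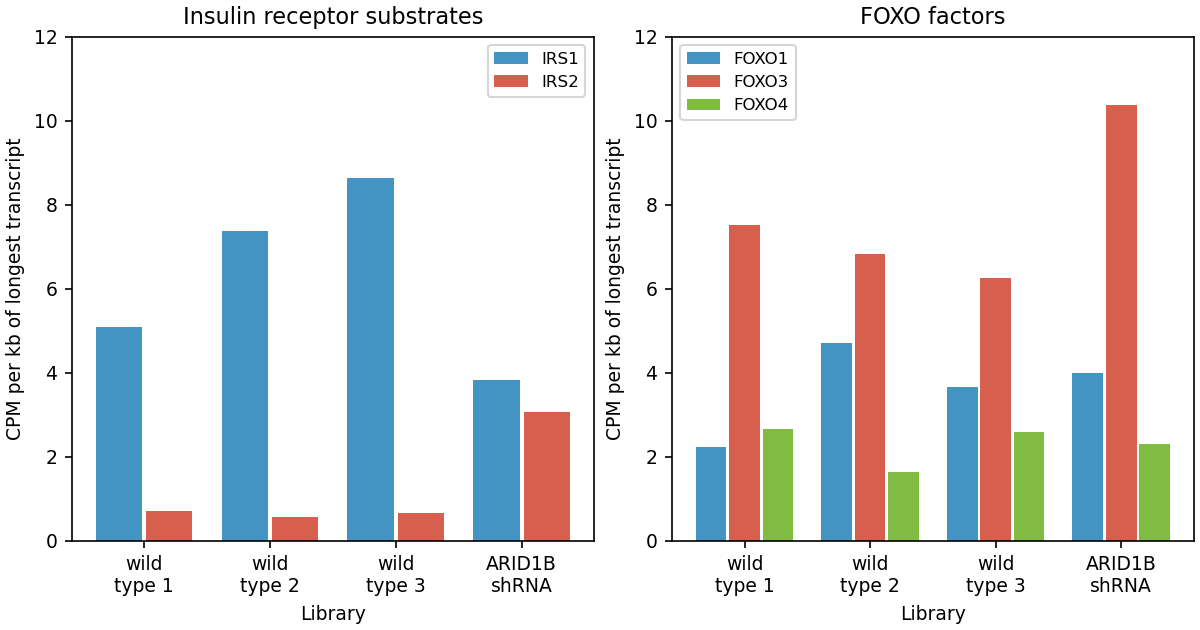
Bars show CPM per kb of the longest transcript in each of the 4 libraries, for IRS1 and IRS2 on the left and FOXO1, FOXO3 and FOXO4 on the right; each bar is 1 library, so there is no error bar. IRS2 makes up 7.13% to 12.2% of the IRS1 and IRS2 sum in wild type and 44.5% in the shRNA-labelled library, and FOXO3 is the tallest FOXO bar in every library.

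PIK3IP1 encodes a membrane protein that binds and restrains the catalytic subunit of PI3K. PIK3IP1 (ENSG00000100100.8) had 34, 27 and 45 counts in wild-type libraries 1 to 3 and 11 counts in the shRNA-labelled library. These were 2.69, 2.04 and 2.92 CPM against 1.25 CPM (Poisson interval 0.625 to 2.24). The lone value was below every wild-type one, and the counting interval reached past the lowest of them. The log2 fold change was -1.02 with an SE of 0.48, and a difference was not detected (edgeR FDR = 0.246, and 0.199 to 0.542 in the 11 alternatives that kept the gene).

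Among the FOXO factors, which carry the low-insulin response into transcription, FOXO3 came nearest to passing. FOXO3 (ENSG00000118689.10) measured 55.2, 50.04 and 45.9 CPM in wild-type libraries 1 to 3 and 76.2 CPM in the shRNA-labelled library (Poisson interval 70.5 to 82.2). All 3 wild-type values were below the interval. The log2 fold change was 0.60 with an SE of 0.18, which did not pass (edgeR FDR = 0.123). It was 0.63 after GC correction (edgeR FDR = 0.0863) and passed under none of the 12 alternatives. FOXO3 shares much of its sequence with the copy FOXO3B, which measured 2.38, 2.57 and 2.14 CPM in wild type against 5.69 CPM in the shRNA-labelled library (edgeR FDR = 0.101). Reads that fit both places equally well may be missing from either count, so both values are uncertain.

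FOXO1 varied most among the wild-type libraries. FOXO1 (ENSG00000150907.6) measured 12.8, 27.0 and 21.0 CPM there, a 2.10-fold range with wild-type library 1 lowest, and 22.9 CPM in the shRNA-labelled library. The lone value fell inside that range (log2 fold change 0.17, SE 0.44, edgeR FDR = 0.840), and its sign turned to -0.08 without wild-type library 1. FOXO4 (ENSG00000184481.12) measured 8.80, 5.44 and 8.51 CPM in wild type against 7.62 CPM in the shRNA-labelled library. It too lay within the wild-type range, at a log2 fold change of 0.01 with an SE of 0.38 (edgeR FDR = 0.987), and its sign changed with upper-quartile scaling, after GC correction, with no filter and without wild-type library 2. FOXO6, the remaining FOXO gene, had 1 to 5 counts in wild type and 6 in the shRNA-labelled library and was not tested.

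Per length, FOXO3 was the most abundant of the 3 FOXO mRNAs in all 4 libraries. It made up 60.5%, 51.8% and 50.1% of their summed CPM per kb in wild-type libraries 1 to 3 and 62.3% in the shRNA-labelled library. FOXO1 took 18.0%, 35.7% and 29.3% in wild type and 23.9%, and FOXO4 21.5%, 12.5% and 20.6% and 13.8%. The FOXO3 and FOXO4 shares of the lone library stood close to those of wild-type library 1 and wild-type library 2, respectively; the FOXO3 share was just above the highest wild-type one and the other shares were within the wild-type range. The sum of the 3 was 12.4, 13.2 and 12.5 CPM per kb in wild type and 16.7 in the shRNA-labelled library, most of the gap being FOXO3.

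CCNG2 encodes cyclin G2, an atypical cyclin that slows the cell cycle and is a known FOXO target. CCNG2 (ENSG00000138764.9) measured 21.5, 19.4 and 18.7 CPM in wild-type libraries 1 to 3 and 18.3 CPM in the shRNA-labelled library (Poisson interval 15.6 to 21.4). The wild-type spread was the narrowest of the 9 genes, 1.15-fold, and the lone value was just below it. The log2 fold change was -0.11 with an SE of 0.23 (edgeR FDR = 0.786), and it turned to 0.17 after GC correction. CCNG1, its paralogue and a known p53 target, measured 178, 158 and 143 CPM in wild type and 102 CPM (log2 fold change -0.65, edgeR FDR = 0.115).

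ARRDC4 is an alpha-arrestin like TXNIP. ARRDC4 (ENSG00000140450.7) measured 11.3, 13.6 and 11.1 CPM in wild-type libraries 1 to 3 and 14.8 CPM in the shRNA-labelled library (Poisson interval 12.4 to 17.6). The lone value was the highest of the 4 and its counting interval took in wild-type library 2. The log2 fold change was 0.30 with an SE of 0.27 (edgeR FDR = 0.524), or 0.54 after GC correction (edgeR FDR = 0.210). Of the other alpha-arrestins, ARRDC1 measured 18.5, 15.4 and 27.0 CPM in wild type and 44.2 CPM, at a log2 fold change of 1.12 (edgeR FDR = 0.113) that came to -0.02 after GC correction. ARRDC2 and ARRDC3 had log2 fold changes of 0.70 and -0.14 (edgeR FDR = 0.279 and 0.827), which turned to -0.13 and 0.19 after GC correction. None of the 4 tested alpha-arrestins passed in the main test. ARRDC1 was called higher with DESeq2 and with no filter, and ARRDC2 with no filter.

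The order of the 9 genes per length in wild type was IRS1, FOXO3, INSR, CCNG2, FOXO1, ARRDC4, FOXO4, PIK3IP1 and IRS2, from 7.04 down to 0.649 CPM per kb. Neighbours whose wild-type ranges overlapped were IRS1 and FOXO3, INSR and CCNG2, CCNG2 and FOXO1, FOXO1 and ARRDC4, and PIK3IP1 and IRS2. The steps from FOXO3 to INSR, from ARRDC4 to FOXO4 and from FOXO4 to PIK3IP1 had no overlap. In the shRNA-labelled library the order was FOXO3, INSR, FOXO1, IRS1, ARRDC4, CCNG2, IRS2, FOXO4 and PIK3IP1, from 10.4 down to 0.413 CPM per kb. IRS1 thus went from rank 1 to rank 4 and IRS2 from rank 9 to rank 7, as the plot of per-length levels shows for the pair.

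**Figure D3:**
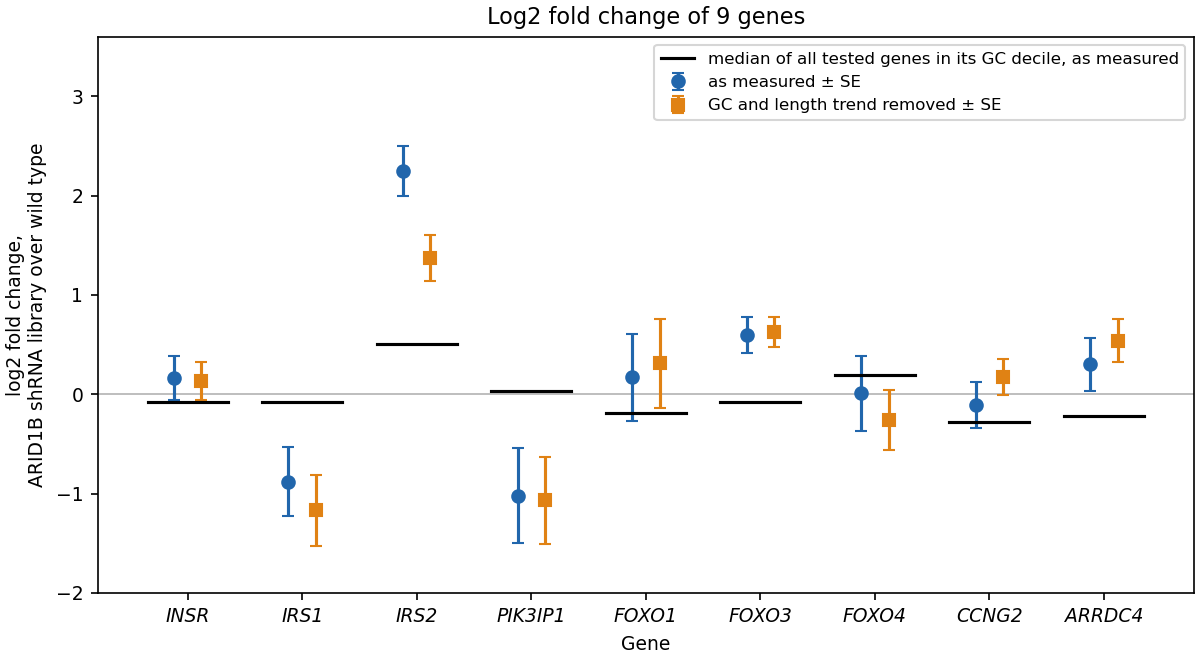
Log2 fold change of the shRNA-labelled library over wild type for the 9 genes, as measured (blue, ± SE) and after GC correction (orange, ± SE); black lines are the median of all tested genes in the same GC bin, as measured. IRS2 moves from 2.25 to 1.37, and IRS1 from -0.88 to -1.17.

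GC correction left the direction of 7 of the 9 genes in place and turned FOXO4 and CCNG2. The genes span 40.8% GC for CCNG2 to 58.7% for IRS2, and the median log2 fold change of all tested genes ran from -0.30 in the lowest of 10 GC bins to 1.32 in the highest. Beside the medians of their own GC bins, IRS1 (-0.88 against -0.08), PIK3IP1 (-1.02 against 0.03) and FOXO4 (0.01 against 0.19) lay lower. IRS2 (2.25 against 0.51), FOXO3 (0.60 against -0.08), ARRDC4 (0.30 against -0.22) and FOXO1 (0.17 against -0.19) lay higher. So did INSR (0.16 against -0.08) and CCNG2 (-0.11 against -0.28). Of the genes in the same bin, 12.8% lay below IRS1 and 9.09% below PIK3IP1. The share was 95.4% for IRS2, 85.6% for FOXO3 and 84.9% for ARRDC4. The part of GC content in these values was not tested beyond this correction.

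The wider pathway was read from 7 fixed lists with 129 distinct genes, of which 116 were tested. Of these 7 rose and none fell (6.03%, against 4.48% called over all tested genes): IRS2, PTPRF, GRB10, AKT1S1, CREBBP, GADD45A and TXNRD1. List genes were called lower under some alternatives: 6 with DESeq2 (beside 16 higher), 9 with no filter (beside 25), 5 without wild-type library 1 (beside 10) and 1 with upper-quartile scaling (beside 6). Of all tested genes 25.4% had an unadjusted p below 0.05. Over all genes DESeq2 called 439 lower beside 1336 higher, and no filter 952 beside 2274. Leaving out wild-type library 1 gave 277 beside 912, and upper-quartile scaling 193 beside 554. These calls made up 10.5% of all genes with no filter and 7.07% without wild-type library 1. After GC correction, where 3.13% of all tested genes were called, IRS2, GADD45A and TXNRD1 still passed.

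At the receptor, 3 of 22 tested genes for insulin and IGF receptors, adaptors and their inhibitors rose and 19 did not pass (median log2 fold change 0.28, or -0.05 after GC correction). Besides IRS2 these were GRB10, an adaptor that inhibits the insulin receptor, and PTPRF, a receptor phosphatase. GRB10 measured 153, 164 and 245 CPM in wild type against 551 CPM in the shRNA-labelled library. It rose by 1.56 on the log2 scale (edgeR FDR = 0.0462), and had 1.51 after GC correction (edgeR FDR = 0.0536). PTPRF measured 74.8, 76.3 and 119 CPM and 304 CPM, and rose by 1.76 (edgeR FDR = 0.0385); after GC correction it had 0.88 (edgeR FDR = 0.0727). Both calls also ended without wild-type library 2 (edgeR FDR = 0.104 and 0.0861), and that of GRB10 when only genes averaging 50 or more counts were kept (0.0514). SH2B2, an adaptor of the receptor, had 1.85 (edgeR FDR = 0.0628), which turned to -0.36 after GC correction.

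Below the receptor, 1 of 28 tested genes of the PI3K, AKT and mTOR chain rose, and the list median of -0.02 was near that of all genes. AKT1S1, the AKT substrate that restrains mTORC1, measured 73.0, 68.9 and 73.8 CPM in wild type and 134 CPM (log2 fold change 0.90, edgeR FDR = 0.0401). Its value was 0.05 after GC correction (edgeR FDR = 0.899), and the call also ended with upper-quartile scaling (edgeR FDR = 0.0564) and on leaving out any wild-type library (up to 0.0797). The mTORC1 scaffold gene RPTOR, the mTOR complex subunit gene MLST8 and the PI3K regulatory subunit gene PIK3R3 had 1.30, 1.42 and -0.83 and did not pass (edgeR FDR = 0.0647, 0.103 and 0.0674). After GC correction RPTOR had 0.46, MLST8 0.05 and PIK3R3 -0.67. Each was called with DESeq2 and with no filter, and PIK3R3 also with upper-quartile scaling.

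Among the FOXO factors and their regulators 1 of 20 tested genes rose. CREBBP, an acetyltransferase that acts on FOXO proteins among many others, measured 71.2, 67.9 and 72.2 CPM in wild type and 142 CPM (log2 fold change 1.01, edgeR FDR = 0.0326), but 0.03 after GC correction (edgeR FDR = 0.949). The call also ended without wild-type library 2 or 3 (edgeR FDR = 0.0652 and 0.0667). SGK1, a kinase that phosphorylates FOXO factors as AKT does, measured 54.4, 102 and 59.3 CPM in wild type and 23.2 CPM. It did not pass (log2 fold change -1.64, edgeR FDR = 0.114), but was called lower with DESeq2, with no filter and without wild-type library 1. YWHAE, one of the 14-3-3 proteins that hold phosphorylated FOXO in the cytoplasm, had -0.53 (edgeR FDR = 0.105).

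Of 25 tested FOXO target genes 2 rose, IRS2 and GADD45A, and none fell; the list median was -0.19. GADD45A, a growth arrest gene that several stress factors also induce, measured 13.8, 13.6 and 15.6 CPM in wild type and 66.7 CPM (log2 fold change 2.22, edgeR FDR = 0.0181, and 2.25 after GC correction). Other targets lay on either side: BNIP3, of mitophagy, had 0.94 (edgeR FDR = 0.0620) and TNFSF10, the death ligand TRAIL, had -1.99, from 92.9, 170 and 107 CPM to 31.1 CPM (edgeR FDR = 0.0719; it passed with DESeq2 at 8.91e-05, with no filter at 1.12e-13 and without wild-type library 1 at 0.0177). BNIP3 was likewise called, as higher, with DESeq2, with no filter and without wild-type library 1. After GC correction 4 targets were called higher, BNIP3 (by a narrow margin) and GABARAPL1 joining, the latter named after its value was seen. Over all genes 351 of 16620 were called higher after that correction. SOD2, like TXNIP, matched no identifier.

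**Figure D4:**
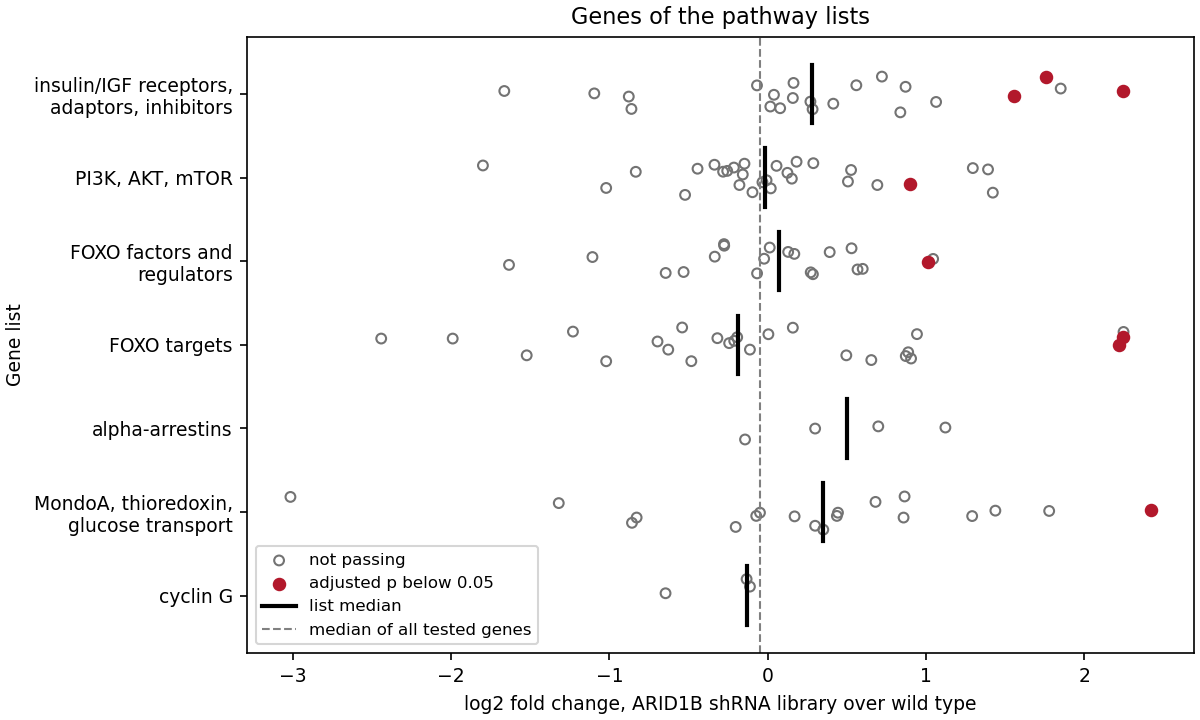
Log2 fold change of each tested gene in the 7 pathway lists; filled red points passed at an adjusted p below 0.05, open points did not, black bars are list medians and the dashed line is the median of all tested genes, -0.05. Points are spread vertically only for visibility, IRS2 and a few others stand in more than 1 list, and the filled points all lie to the right of 0.

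Around TXNIP, in the list of MondoA and ChREBP glucose sensing, thioredoxin and glucose transport, 1 of 19 tested genes rose. TXNRD1, which reduces thioredoxin, the binding partner of TXNIP, measured 260, 322 and 293 CPM in wild type and 1562 CPM (log2 fold change 2.42, edgeR FDR = 0.0149). The glucose transporter gene SLC2A1 and the hexokinase gene HK2 had 1.29 and 1.44 and did not pass (edgeR FDR = 0.0558 and 0.0937). HK2 was called higher with DESeq2, with no filter and without wild-type library 1. SLC2A1 measured 131, 122 and 187 CPM in wild type and 358 CPM. It passed with RLE scaling (edgeR FDR = 0.0492), DESeq2 (0.00125) and no filter (1.8e-09), and without wild-type library 1 (0.0444) or 3 (0.0416), but not without library 2 (0.102). SLC2A12, another glucose transporter gene, measured 7.61, 2.80 and 3.77 CPM and 0.569 CPM (log2 fold change -3.02, edgeR FDR = 0.107). With DESeq2, with no filter and without wild-type library 1, SLC2A12 was called lower. Its value in the shRNA-labelled library rested on 5 counts (Poisson interval 0.185 to 1.33 CPM), and its wild-type values spread 2.72-fold. None of the 3 tested genes of the cyclin G family passed in the main test, but CCNG1 was called lower with no filter.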

How the data were processed

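Poly(A)-selected RNA of 4 Daoy libraries was read in single-end runs of 100 nucleotides (per the labels' protocols). Deposited were raw read counts for each gene, with a file for every library. Per the submitters' processing notes, HISAT2, HTSeq and DESeq2 were used with GRCh37 (hg19); the sources used here do not give versions, strand setting or annotation. In each file 5 closing lines that stand for no gene were dropped; reads outside genes were 7.07% to 7.65% in the wild-type libraries and 5.27% in the shRNA-labelled one.

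Identifiers were matched without their version to current symbols (51996 of 57820, 89.9%). Genes were filtered by filterByExpr (minimum count 10, minimum total 15), scaled by TMM and tested with edgeR 4.0.16 (glmQLFit, robust, and glmQLFTest; R 4.3.3), and p-values were adjusted by Benjamini-Hochberg. Wild type supplies all 2 residual degrees of freedom, and the lone library is taken to vary alike. CPM are counts over each library's total in genes. Lengths and GC content are those of the longest GENCODE 29 transcript (97.6% of tested genes); their trend was fitted per library by loess (span 0.3, mean count of at least 20). No 2 libraries were duplicates (the chi-square between gene counts, per degree of freedom, was at least 25.8).

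The members, lists and tests were chosen with earlier results of these data known. Genes named by rule are the 9 measured members, ARID1B, up to 4 tested genes a list by smallest p, and 7 paralogues. Some cell markers, the copy FOXO3B, the unmatched SOD2 and GABARAPL1 are named outside that rule. Alternatives were DESeq2 1.42.0, limma-voom (limma 3.58.1), scaling by RLE or upper quartile, no filter or one at a mean count of 50, no robust shrinkage, edgeR's later quasi-likelihood method, the trend taken out (GC correction), and leaving out a wild-type library in turn. Protein sequences were not used here.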

Additional observations from a re-analysis of the deposited data

How the results depend on the processing

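IRS2 passed under all 12 alternatives. Among the other 8 measured genes only IRS1 passed in any, so that 2 of the 9 were called with no filter on low counts and without wild-type library 1, and 1 under each of the others. The count without single wild-type libraries thus ran from 1 to 2. PIK3IP1 was not in the test with a mean count of at least 50. Over all genes 763 were called, but 3226 with no filter, 1775 with DESeq2 and 157 to 1189 without single wild-type libraries (1189 without library 1, 157 without library 2 and 478 without library 3). Among the fixed lists 7 genes were called, but 34 with no filter, 22 with DESeq2 and 3 to 15 without single wild-type libraries. The cause of these shifts was not tested. The ARID1B log2 fold change ran from 0.47 to 1.12 without single wild-type libraries. Of called genes 81.4% were higher, and 67.5% after GC correction. Without library 3 that share was 93.9%. Upper-quartile scaling moved the median of all genes from -0.05 to -0.17. With no filter, where 30709 genes were tested, the median was -0.27. No paired analysis was possible because the shRNA arm holds 1 library with no replicate number. Among the 9 measured genes PIK3IP1 had the fewest counts, 11, in the shRNA-labelled library.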
